A study of Mus musculus with 3 samples.

Results

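The 9 genes described here encode histone lysine methyltransferases whose marks lie in closed chromatin: Kmt5a, Kmt5b and Kmt5c, which methylate lysine 20 of histone H4 (H4K20), Ezh1 and Ezh2, which methylate lysine 27 of histone H3 (H3K27), and Suv39h2, Setdb1, Ehmt1 and Ehmt2, which methylate lysine 9 of histone H3 (H3K9). They were chosen by name, as 9 of 21519 protein-coding genes (chromosome X and the autosomes), and all 9 were found in the gene table. For each, the mapped nucleosome positions over the gene with 5 kb on each side, called its span here, and within 500 bp of either gene end were read on each day. What was measured is where nucleosomes sit over these genes, not how much RNA or enzyme the cells make and not where the marks lie.

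The positions come from 3 libraries of mouse fetal liver erythroblasts, 1 each for day 0, day 1 and day 2 of culture. All 3 share their source and medium: Ter119-negative cells, which lack a surface antigen of late red cells, from 6 fetuses, kept in IMDM medium with 10% serum, insulin, albumin and 2 U/ml erythropoietin, a hormone under which red cell precursors mature. Micrococcal nuclease, which cuts the DNA between nucleosomes, was used to release single nucleosomes for sequencing. No strain, age or genotype is given in the labels used here, the fetuses were not kept apart, and position lists hold no marker RNA by which the cell type could be checked. With 1 library per day no difference has a replicate check, so no test is given, and the 95% intervals below cover counting error only.

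Methyl groups on H3K9 and H3K27 are bound by reader proteins that keep chromatin compact and genes silent, and methylated H4K20 takes part in chromosome compaction, DNA repair and the timing of replication. Ezh1 and Ezh2 are alternative catalytic subunits of the polycomb repressive complex PRC2. A red cell precursor condenses its nucleus step by step before expelling it, and Kmt5a is known to be needed for this maturation in mouse.

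The starts of the genes differed in how much of the DNA lay under mapped nucleosomes, and 5 promoters are shown for that contrast. Each runs from 250 bases before to 50 bases after the first annotated start, 5′ to 3′ on the strand of the gene, from the RefSeq promoter table of GRCm38.p6, whose coordinates are those of mm10. All 9 genes were found in that table. Kmt5b and Kmt5c were picked because they had the most and the fewest positions within 500 bp of the start over the 3 days, 16 and 7; Ezh1, Ezh2 and Suv39h2 were added after their values had been seen. Kmt5b lies at chr19:3767171-3767470 on the plus strand, and capitals mark the 151 bases under a position on all 3 days. Kmt5c lies at chr7:4739877-4740176 on the plus strand, and capitals mark its 2 matches to CCAAT, since none of its bases was covered on any day. Ezh1 lies at chr11:101226414-101226713 on the minus strand, with the 263 bases covered on day 2 in capitals. Ezh2 lies at chr6:47594981-47595280 on the minus strand, with the 230 bases covered on day 0 in capitals. The start used for Ezh2, at 47595030, lies inside its gene, which reaches 47595270 in the gene table. Suv39h2 lies at chr2:3474937-3475236 on the minus strand, with the 105 bases covered on at least 1 day in capitals.
Kmt5b: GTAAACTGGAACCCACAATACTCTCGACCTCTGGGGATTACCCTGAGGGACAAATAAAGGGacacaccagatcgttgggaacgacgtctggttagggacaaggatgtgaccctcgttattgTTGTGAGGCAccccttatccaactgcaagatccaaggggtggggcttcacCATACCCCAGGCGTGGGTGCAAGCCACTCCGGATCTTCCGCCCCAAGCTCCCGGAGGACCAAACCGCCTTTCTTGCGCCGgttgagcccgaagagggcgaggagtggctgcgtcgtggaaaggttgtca
Kmt5c: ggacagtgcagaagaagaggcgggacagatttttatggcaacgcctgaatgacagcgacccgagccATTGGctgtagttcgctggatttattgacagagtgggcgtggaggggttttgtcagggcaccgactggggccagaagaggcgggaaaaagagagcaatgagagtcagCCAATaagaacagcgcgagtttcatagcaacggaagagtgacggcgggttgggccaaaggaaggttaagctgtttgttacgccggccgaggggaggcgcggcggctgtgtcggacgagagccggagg
Ezh1: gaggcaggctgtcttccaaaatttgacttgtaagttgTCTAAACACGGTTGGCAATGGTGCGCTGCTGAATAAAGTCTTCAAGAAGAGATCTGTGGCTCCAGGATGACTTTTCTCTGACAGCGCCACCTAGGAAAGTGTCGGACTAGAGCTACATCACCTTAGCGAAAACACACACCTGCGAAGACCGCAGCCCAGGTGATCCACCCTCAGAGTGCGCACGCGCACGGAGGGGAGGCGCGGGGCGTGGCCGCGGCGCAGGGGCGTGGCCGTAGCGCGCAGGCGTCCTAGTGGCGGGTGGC
Ezh2: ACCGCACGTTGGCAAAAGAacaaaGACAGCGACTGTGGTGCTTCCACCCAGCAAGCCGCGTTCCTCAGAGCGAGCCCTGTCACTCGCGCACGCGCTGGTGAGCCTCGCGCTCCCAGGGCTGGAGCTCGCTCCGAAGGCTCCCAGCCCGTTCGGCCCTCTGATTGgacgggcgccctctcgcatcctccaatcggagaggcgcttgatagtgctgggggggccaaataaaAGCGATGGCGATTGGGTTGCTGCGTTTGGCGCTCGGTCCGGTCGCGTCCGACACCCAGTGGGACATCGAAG
Suv39h2: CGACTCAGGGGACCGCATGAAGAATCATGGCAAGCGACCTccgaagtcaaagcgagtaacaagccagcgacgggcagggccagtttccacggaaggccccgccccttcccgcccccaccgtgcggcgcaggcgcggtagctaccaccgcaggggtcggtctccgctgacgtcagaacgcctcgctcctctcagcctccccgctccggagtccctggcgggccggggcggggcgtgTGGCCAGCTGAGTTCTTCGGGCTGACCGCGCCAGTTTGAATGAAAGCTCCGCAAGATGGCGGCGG

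The lists hold 3735952, 2999502 and 4474045 positions on days 0, 1 and 2, and all positions are 140 bp wide. Each has a summit value, a smoothed read coverage scaled by the authors, and a fuzziness score for the spread of reads around its centre, with library medians of 7.62, 6.80 and 6.26 for the summit and 51.1, 54.5 and 51.1 for the fuzziness. Summit values lay on whole steps of 0.762, 0.324 and 0.626 for 98.7%, 97.5% and 98.9% of sampled values, within 0.01. If 1 step is 1 unit of coverage, days 1 and 2 were read 2.35 and 1.22 times as deeply as day 0 (no read totals are given). Because lists of different length and scale cannot be set side by side as they stand, a relative occupancy was used: the summit values summed over a window, per base, divided by the same quantity over the autosomes of that library. A value of 1 is the autosome mean, and a change was counted only at 2 times or more with at least 3 positions on each of the 3 days.

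Over their spans, the 9 genes held more mapped nucleosome signal per base than the autosome mean on every day, from 1.45 to 6.28 times. In 8 of the 9 the highest value was that of day 1, against 51.8% of all genes tested. None reached a change of 2 times over the span between any pair of days. The medians over all genes were 1.77, 1.83 and 1.61 on days 0, 1 and 2. Most genes thus also lay above the autosome mean, and a value above 1 was not particular to these 9. The share of all genes above 1 was not computed. Suv39h2 and Ezh2 lay below the median of all genes on day 0, at percentiles 42.5 and 44.3, and Ezh2 also on day 1, at 48.1. The plot of span occupancy sets the genes beside the 500 kb on each side of them.

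**Figure D1:**
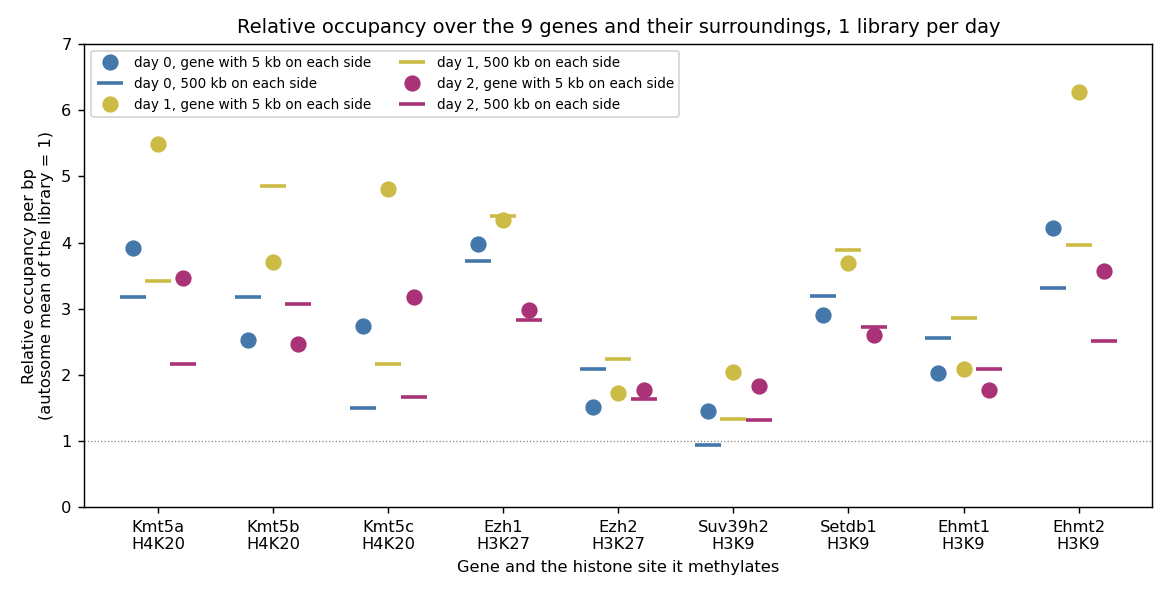
Relative occupancy per bp (autosome mean of the library = 1, dotted line) for the 9 genes on days 0, 1 and 2, 1 library per day: points stand for the gene with 5 kb on each side and bars for the 500 kb on each side of it. Ehmt2 and Kmt5a are highest on day 1, at 6.28 and 5.49, above their surroundings at 3.97 and 3.42, and Kmt5b lies below its surroundings on each day.

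Among the H4K20 enzymes, Kmt5a, which adds the first methyl group, lies on chromosome 5 at 124439930-124462311 in mm10. Its span held 158, 164 and 158 positions on days 0, 1 and 2, and the relative occupancy was 3.91, 5.49 and 3.47. Kmt5b, which adds further methyl groups and lies on chromosome 19 at 3767362-3818303, held 229, 256 and 244 positions with an occupancy of 2.53, 3.71 and 2.47. Kmt5c, the other enzyme of that step, is the shortest of the 9 genes with 7423 bp, on chromosome 7 at 4740092-4747514. It held 67, 85 and 81 positions with an occupancy of 2.75, 4.82 and 3.17. In all 3 genes day 1 was the highest day. The windows of Kmt5a and Kmt5c also reach into Rilpl2 and Cox6b2, and no other gene lies in that of Kmt5b.

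Kmt5c had the largest span difference of the 9 genes from day 0 to day 1, a log2 change of 0.81 on the occupancy scale, at the 96.0th percentile of all genes. Position numbers, scaled by the lengths of the lists, gave a ratio of 1.58 (95% interval 1.13 to 2.21). The difference was greatest within the gene: its body held 28, 42 and 36 positions with an occupancy of 2.99, 6.30 and 3.52 on days 0, 1 and 2, while the 5 kb before its start had 2.52, 3.49 and 2.37. The body therefore passed 2 times on day 1 over day 0, with a log2 change of 1.08, although the span as a whole did not. No share of all gene bodies past 2 times is given beside it. The 500 kb on each side of Kmt5c were also higher on day 1, by 0.53 on the log2 scale. Relative to them the span changed by 0.28, at percentile 70.5 over all genes.

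Ezh1 and Ezh2, the alternative catalytic subunits of PRC2, differed in how densely their genes were mapped. Ezh1, on chromosome 11 at 101191115-101226463, held 225, 208 and 204 positions with an occupancy of 3.98, 4.33 and 2.99 on days 0, 1 and 2. Ezh2, on chromosome 6 at 47530274-47595270, held 181, 166 and 247 positions over a longer span, with an occupancy of 1.52, 1.72 and 1.77. Ezh1 was above Ezh2 on each day, with 4.96, 4.59 and 4.5 positions per kb against 2.41, 2.21 and 3.29, and none of the exact Poisson intervals of a day overlapped. The order of the days also differed: Ezh1 was lowest on day 2, where its scaled number ratio to day 0 was 0.763 (0.628 to 0.927), and Ezh2 was highest there, with a ratio of 1.15 (0.945 to 1.40) whose interval includes 1. Both windows hold part of a neighbour, Cntnap1 beside Ezh1 and Cul1 beside Ezh2.

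Among the H3K9 enzymes, Ehmt2 (G9a), on chromosome 17 at 34898463-34914073, had the highest occupancy of the 9 genes on each day, at 4.22, 6.28 and 3.56 with 125, 133 and 129 positions. It stood at the 94.7th, 97.9th and 96.0th percentiles of all genes. Its partner Ehmt1 (GLP), with which it forms the complex that writes mono- and dimethyl H3K9, is the longest gene of the set with 128875 bp, on chromosome 2 at 24790769-24919643. Ehmt1 held 428, 373 and 442 positions with an occupancy of 2.04, 2.09 and 1.78. Ehmt2 was above Ehmt1 on each day, and the window of Ehmt2 also holds Zbtb12 and part of Slc44a4.

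Setdb1, a trimethyl H3K9 enzyme brought to repeats by Trim28, lies on chromosome 3 at 95323525-95357202. Its span held 173, 176 and 176 positions with an occupancy of 2.90, 3.70 and 2.6 on days 0, 1 and 2. Suv39h2, known for trimethyl H3K9 beside centromeres, lies on chromosome 2 at 3455815-3474986, and 96.0% of it overlaps the annotated span of Dclre1c. It held 68, 74 and 95 positions with an occupancy of 1.45, 2.04 and 1.84. Setdb1 was highest on day 1 and lowest on day 2, whereas Suv39h2 was lowest on day 0.

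Set out as changes, day 1 over day 0 was above 0 on the log2 scale in 9 of 9 spans, against 62.6% of all genes tested, with a median of 0.49 against 0.16. No span was higher or lower by 2 times, where 2% and 7.02% of the 19740 genes tested were. Day 2 over day 1 was above 0 in 1 span of 9, that of Ezh2 at 0.04, against 35.7% of all genes, with a median of -0.54 against -0.26; none passed 2 times, where 10.4% of genes were higher and 0.643% lower. Day 2 over day 0 was above 0 in 3 spans, against 38.2% of all genes, and these were Suv39h2 at 0.34 and Ezh2 and Kmt5c at 0.21 each. The median was -0.16 against -0.14, with 0 spans past 2 times, where 6.93% of genes were higher and 1.92% lower. Scaled to the median of all gene spans instead of the autosomes, 8, 2 and 4 spans were above 0 for these comparisons; the signs that turned were those of Ehmt1 at -0.01 for day 1 over day 0, Suv39h2 at 0.03 for day 2 over day 1 and Kmt5b at 0.10 for day 2 over day 0.

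Counted together, the 9 spans held 1654, 1635 and 1776 positions on days 0, 1 and 2. Scaled by the lengths of the lists, day 1 over day 0 had a ratio of 1.23 (1.15 to 1.32), day 2 over day 1 a ratio of 0.736 (0.687 to 0.787), and day 2 over day 0 a ratio of 0.904 (0.845 to 0.967). Without scaling the ratios were 0.989, 1.09 and 1.07, so that the number of mapped positions over these genes was nearly the same on each day while the length of the whole list was not. Depth was inferred to be highest and the list shortest on day 1, and the part of either in these ratios was not tested.

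**Figure D2:**
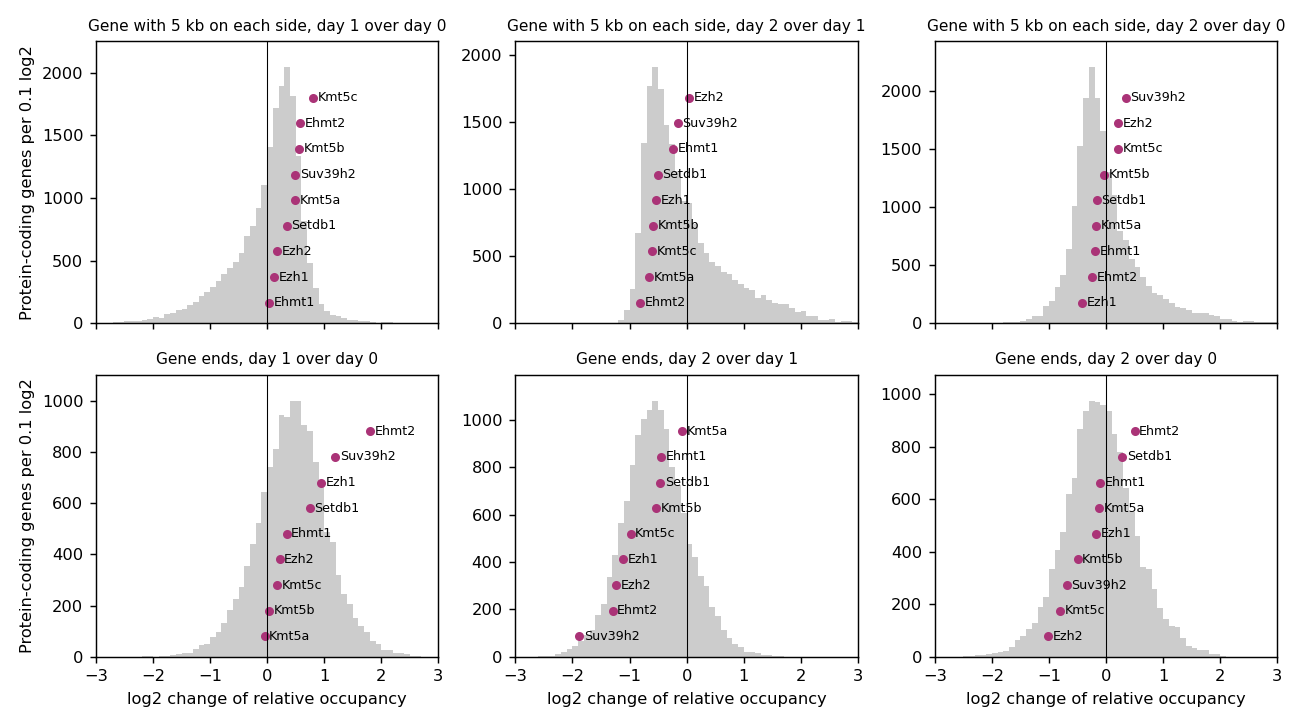
Number of protein-coding genes per 0.1 of log2 change in relative occupancy (grey), for the spans (upper panels) and the gene ends (lower panels), for day 1 over day 0, day 2 over day 1 and day 2 over day 0; each purple point is 1 of the 9 genes at its change, and its height only spreads the names. The spans of the 9 genes lie within 1 log2 unit of 0, and at the ends Ehmt2 reaches 1.80 for day 1 over day 0 and Suv39h2 -1.88 for day 2 over day 1.

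The DNA around the genes mostly differed between days in the same direction. In the 500 kb on each side of the spans, the median log2 change over the 9 genes was 0.26 for day 1 over day 0, -0.51 for day 2 over day 1 and -0.30 for day 2 over day 0, and the sign was that of the span in 9, 8 and 8 genes, against 70.8%, 81.4% and 84.6% of all genes. After division by the surroundings, the medians were 0.06, 0.00 and 0.07, and no gene passed 2 times, where 2.33%, 3.94% and 1.45% of all genes were higher and 4.36%, 1.81% and 0.811% lower. Over all genes, the change of a span and of its surroundings had Pearson coefficients of 0.51, 0.74 and 0.79 for these comparisons (n = 19740 genes), a description across genes that share libraries and neighbourhoods.

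Relative to its surroundings, Ezh2 had the largest log2 difference of the set for day 2 over day 0, 0.56, which is percentile 95 over all genes. Its span stood at 0.728, 0.768 and 1.08 times its surroundings on days 0, 1 and 2, and these surroundings were themselves uneven. The 500 kb at lower coordinates, beyond the end of the gene, had an occupancy of 1.12, 0.753 and 0.889, and the 500 kb at higher coordinates had 3.06, 3.72 and 2.39. Kmt5a came next with 0.38, at percentile 89.2, with a span at 1.23, 1.60 and 1.60 times its surroundings. Kmt5c stood farthest above its surroundings on each day, at 1.83, 2.22 and 1.91 times, and Suv39h2 at 1.55, 1.54 and 1.40 times. The surroundings of Suv39h2 reach below 3 Mb, where gene entries were left out. Whether positions could be mapped there was not checked, which limits its ratio and its number of genes. Kmt5b, Setdb1 and Ehmt1 lay below theirs on each day, Kmt5b at 0.796, 0.765 and 0.806 times. Ehmt1 also lies between unlike flanks, with 1.33, 1.39 and 1.35 at lower coordinates and 3.79, 4.34 and 2.81 at higher ones. Counting the gene itself, the surrounding 1 Mb held the fewest genes for Suv39h2, 12, and Ezh2, 17, which also had the lowest span occupancy on day 0. Ehmt2, the highest on each day, had the most, 64. This order did not hold throughout. Kmt5a, with 24, had a span occupancy of 3.91, 5.49 and 3.47 on days 0, 1 and 2, and Kmt5b, with 42, had 2.53, 3.71 and 2.47.

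**Figure D3:**
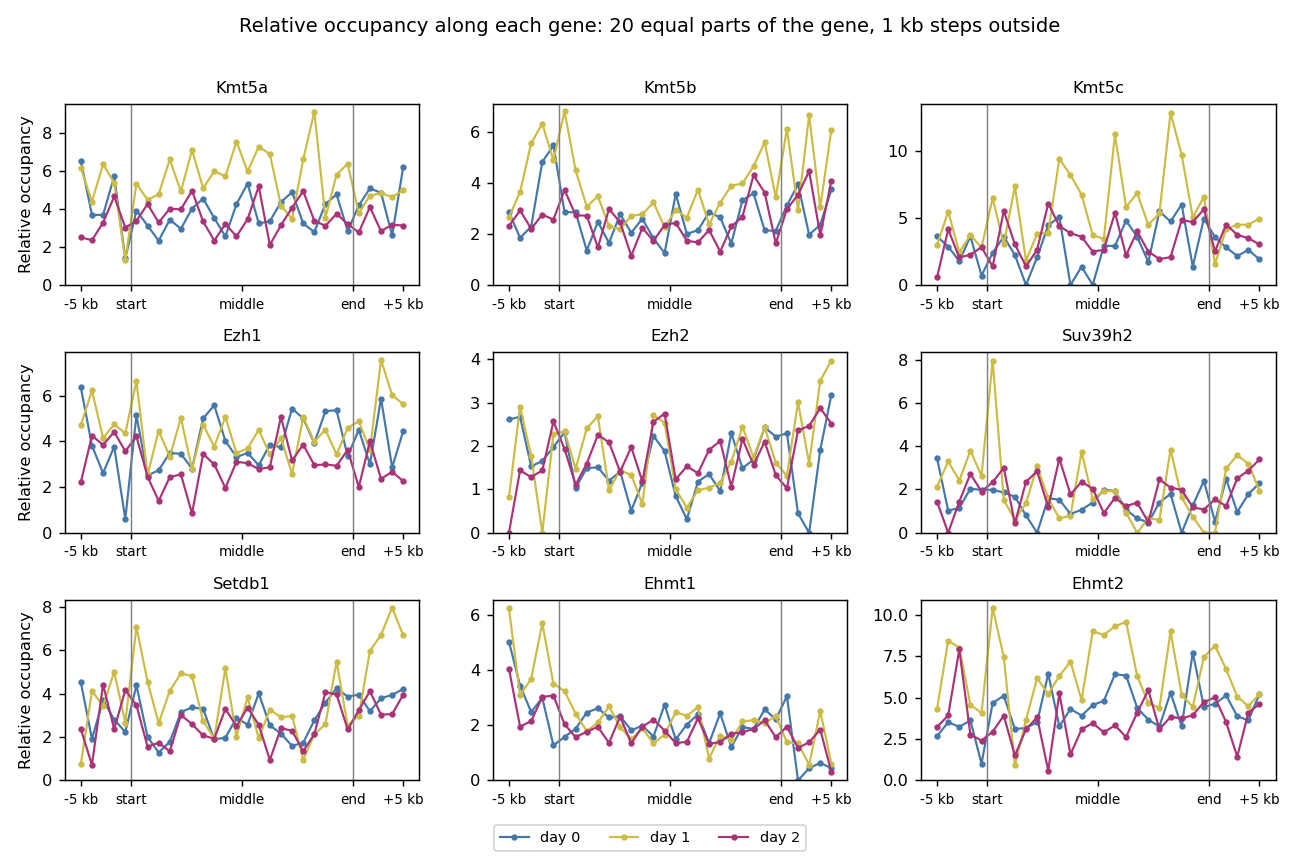
Relative occupancy (autosome mean = 1) along each of the 9 genes on days 0, 1 and 2, in steps of 1 kb over the 5 kb before the start and after the end and in 20 equal parts of the gene, 1 line per library; vertical axes differ between panels and gene direction runs left to right. The day 1 line of Kmt5c lies above the others over most of the gene, whose body has 2.99, 6.30 and 3.52 on days 0, 1 and 2.

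How much of a span lay under positions separated the genes further. Ehmt2 had 66.1%, 69.9% and 67.5% of its span covered on days 0, 1 and 2, and Kmt5a 65.5%, 67.3% and 65.8%. Ezh2 had 33.5%, 30.2% and 45.4%, and Suv39h2 32.4%, 34.5% and 44.3%. Both of these sparsely mapped genes were best covered on day 2, and their stretches of over 1 kb without a centre numbered 13, 17 and 1 in Ezh2 and 5, 6 and 3 in Suv39h2. The longest such stretch in Ezh2 was 2155, 2860 and 1332 bp on days 0, 1 and 2. Ehmt1, at 42.1%, 36.8% and 43.7% covered, still had 15 of these stretches on day 2, after 15 and 20 on days 0 and 1. The day 2 list is the longest of the 3, and its part in the filling of the stretches was not tested.

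**Figure D4:**
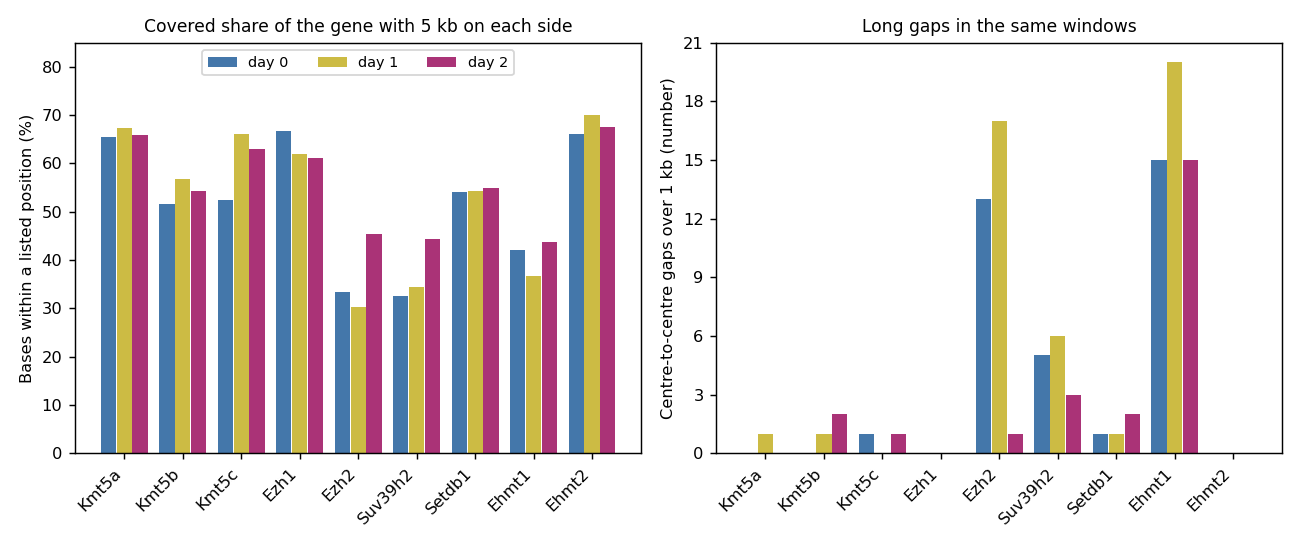
Left, percent of the bases of each span within a listed position, and right, number of distances over 1 kb between neighbouring centres, for the 9 genes on days 0, 1 and 2, with 1 bar per library. Ezh2 has 13, 17 and 1 such distances on days 0, 1 and 2, and Ehmt1 has 15, 20 and 15.

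In the genes with the most coverage, the centres of neighbouring positions lay 172 to 195 bp apart at the median, as in Ehmt2 with 190, 172 and 172 bp and Ezh1 with 180, 190 and 195 bp on days 0, 1 and 2. Ezh2 had 250, 255 and 232 bp, a distance that includes unmapped stretches. Strong positions also set Ehmt2 apart from Ezh2: summit values of 10 or more made up 47.2%, 60.9% and 27.9% of the positions of Ehmt2, beside 8.84%, 7.83% and 5.26% of those of Ezh2. Pooled over the 9 spans, the median summit value was 7.62, 7.44 and 6.88 and the median fuzziness 52.6, 55.5 and 53.0, each at or above its library median.

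The gene ends rest on few positions. The windows within 500 bp of both ends held 4 to 12 positions per gene and day. The largest difference for day 1 over day 0 was that of Ehmt2, which had 7, 12 and 12 positions there and an end occupancy of 2.67, 9.30 and 3.78 on days 0, 1 and 2, a log2 change of 1.80 for day 1 over day 0 at the 98.5th percentile of genes. Both of its ends were highest on day 1, with 1.71, 7.90 and 3.01 at the start and 3.64, 10.7 and 4.55 at the stop, where Slc44a4 also reaches the window. The largest for day 2 over day 1 was that of Suv39h2, -1.88 on the log2 scale. Its signal lay at the start, where 4, 5 and 3 positions gave an occupancy of 2.6, 8.26 and 1.73, while its stop held 2, 0 and 1 positions.

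On day 1 over day 0, the ends of 8 of the 9 genes were above 0 on the log2 scale, against 77.8% of all genes. Those of Suv39h2 and Ehmt2 were higher by 2 times or more and 0 of the 9 genes were lower, where 16.2% and 1.3% of the 14089 genes tested were. On day 2 over day 1, 0 were above 0, against 16.3% of all genes; the ends of Ezh1, Ezh2, Suv39h2 and Ehmt2 were lower by 2 times or more and 0 were higher, where 19.8% and 0.596% of genes were. On day 2 over day 0, 2 were above 0, against 42.2% of all genes; Ezh2 alone was lower by 2 times or more and 0 were higher, where 6.5% and 4.23% of genes were. The medians over the 9 genes were 0.34, -0.98 and -0.17 for these comparisons, beside 0.45, -0.56 and -0.11 over all genes. Scaled to the median of all gene ends, Ehmt2 alone was past 2 times for day 1 over day 0, at 1.39, and Suv39h2 alone for day 2 over day 1, at -1.46; with windows of 1000 bp none of the 9 was. The interval of the scaled number ratio includes 1 in each of the 9 genes and each comparison, so the numbers alone do not set the days apart. In Ezh1 the fold of the occupancy was close to the number ratio, 1.92 and 1.86 for day 1 over day 0; in Ehmt2 it was not, 3.48 and 2.13.

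Ezh1, Ezh2 and Kmt5c show how the ends varied within the set. Ezh1 had 8, 12 and 8 positions and an end occupancy of 3.56, 6.82 and 3.17 on days 0, 1 and 2. Its stop, where the window also holds part of Cntnap1, had 4.07, 8.88 and 2.56, and its start 3.05, 4.77 and 3.77. Ezh2 had 7, 5 and 4 positions with 2.17, 2.52 and 1.07, so its ends were lowest on the day when its span was highest. Kmt5c had 8, 7 and 5 positions with 3.15, 3.54 and 1.79, and its start alone had 1.65, 2.97 and 0.513. The remaining genes stayed under 2 times in each comparison: the end occupancy was 3.44, 3.33 and 3.15 in Kmt5a, 4.15, 4.25 and 2.94 in Kmt5b, 2.6, 4.37 and 3.17 in Setdb1, whose stop window also holds part of Cers2, and 2.19, 2.77 and 2.03 in Ehmt1.

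Single positions near the starts show where this signal lay. The first position downstream of the first annotated start, a place where active genes usually carry a well-placed nucleosome, was centred within 200 bp of it in all 9 genes on all 3 days, where 57.6%, 64.1% and 66.5% of all 17273 starts had one on days 0, 1 and 2. This depends on the start used, since in some genes it lies inside the gene end of the gene table, farthest in Ezh2. Counted from those gene ends, the first centre lay past 200 bp in Ezh2 on days 1 and 2, at 379 and 299 bp. The same held in Kmt5b on day 1, at 209 bp, and in Kmt5c on day 2, at 214 bp. In Suv39h2 the first position after the first annotated start had a summit value of 6.80, 21.2 and 6.87, and in Ehmt2 6.01, 19.2 and 6.88. Ezh2 had 13.1, 19.5 and 11.2 and Ehmt1 11.8, 17.0 and 11.6. In the top 1% of summit values of the library were 0, 4 and 1 of the 9 first positions on days 0, 1 and 2, these 4 genes on day 1 and Ezh1 with 14.6 on day 2, where 3.08%, 13.6% and 6.26% of all such first positions were. At its first start Kmt5a was highest on day 0, with 11.4, 6.15 and 5.0 on days 0, 1 and 2. The order of the days also depends on the start used. After the later Ehmt2 start at 34898970 the summit values were 14.9, 15.6 and 6.88, at 21, 271 and 141 bp. After the Kmt5a start at 124445499 day 1 was highest, with library percentiles of 48.9, 99.8 and 88.4. After the Kmt5a start at 124446704 day 2 was highest, with percentiles of 12.7, 49.1 and 82.5.

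In some of the genes, named here for their high values, strong day 1 positions also followed farther downstream. Suv39h2 had centres 85, 305 and 415 bp after its start with summit values of 21.2, 21.5 and 15.7. Ehmt2 had centres at 107, 307 and 457 bp with 19.2, 20.3 and 19.2, and Setdb1 at 81, 331 and 491 bp with 13.7, 19.9 and 20.8. Ezh2 had centres at 139, 449 and 569 bp with 19.5, 19.3 and 13.8, and Ezh1 at 182, 287 and 512 bp with 14.5, 17.8 and 16.2. Each of these values was above the day 1 library median of 6.80, and how often all genes have such rows was not computed. The other genes varied on day 1. Kmt5a had centres at 106, 211 and 331 bp with 6.15, 5.18 and 13.6, and Kmt5b at 150, 400 and 610 bp with 15.4, 9.45 and 13.6. Kmt5c had 12.0, 10.0 and 10.4 at 134, 314 and 479 bp, and Ehmt1 17.0, 17.5 and 7.44 at 138, 318 and 643 bp. Such rows were not particular to day 1: Ezh2 on day 0 had 13.1, 16.8 and 12.9 at 49, 309 and 539 bp.

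**Figure D5:**
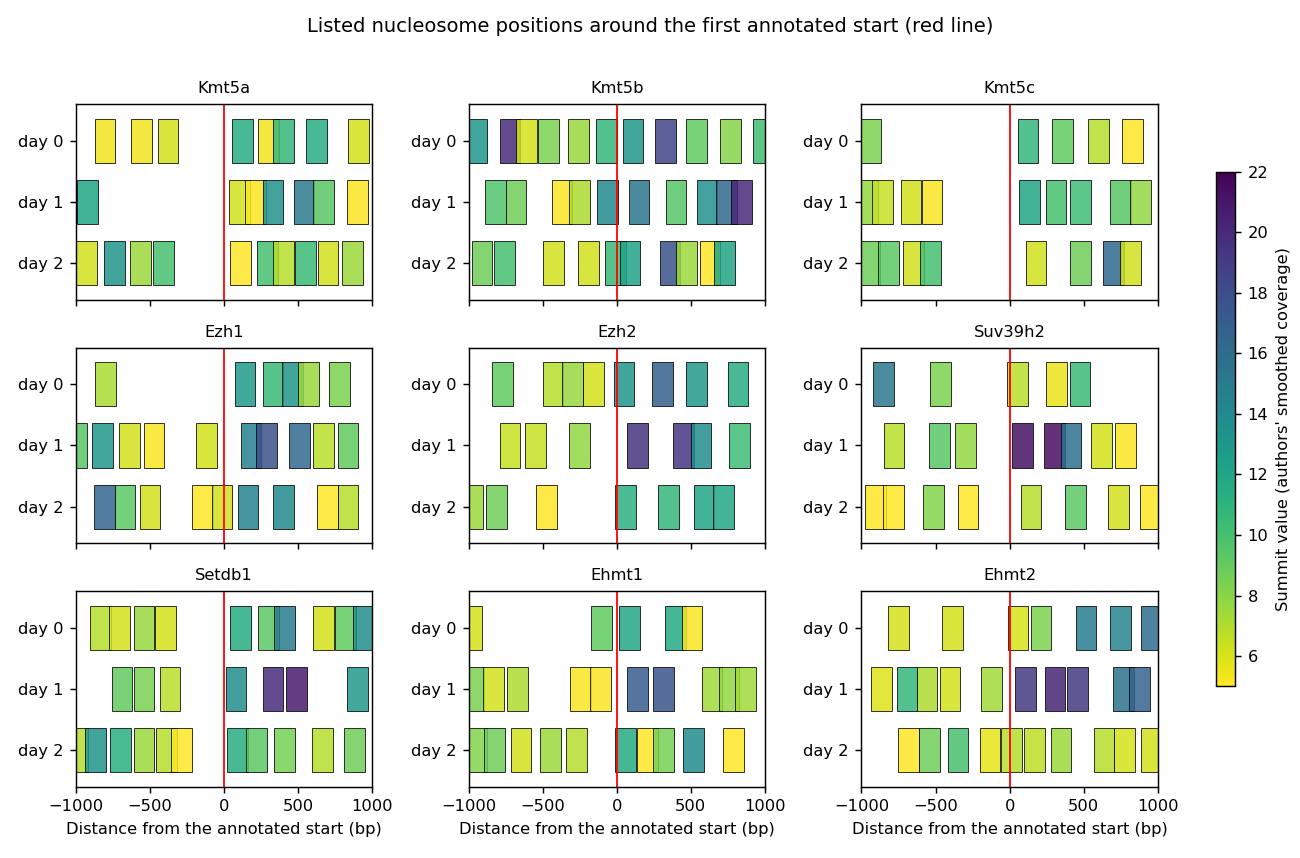
Listed positions, drawn as boxes 140 bp wide, within 1000 bp of the first annotated start (red line) of the 9 genes on days 0, 1 and 2; distance runs along the gene's direction in bp and the colour of a box gives the authors' summit value. The first centre after the start of Suv39h2 lies at 55, 85 and 145 bp with summit values of 6.80, 21.2 and 6.87 on days 0, 1 and 2.

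The room left across the start, measured as the distance between the nearest centres on either side of it, differed between genes. Over all 17273 starts the median distance was 523, 490 and 378 bp on days 0, 1 and 2. In Kmt5c it was 1065, 658 and 715 bp and in Kmt5a 503, 1025 and 520 bp, above the median on days 1 and 2 in both. Kmt5b had 180, 210 and 100 bp, under it on each day. The days stood in opposite order in Ezh1 and Ezh2: Ezh1 had 940, 300 and 175 bp on days 0, 1 and 2, and Ezh2 205, 390 and 535 bp. Setdb1 and Suv39h2 had 505, 445 and 380 bp and 522, 385 and 425 bp, and Ehmt1 and Ehmt2 had 190, 250 and 330 bp and 442, 230 and 145 bp.

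Coverage of the promoters was read from the same positions, so it is not a second measure of that contrast. Of the 300 bases, Ezh1 had 0, 140 and 263 covered on days 0, 1 and 2, and Ezh2 230, 69 and 61. Kmt5b had 210, 211 and 260, Kmt5c 0 on each day and Suv39h2 65, 55 and 40. No position centre lay in 6, 5 and 6 of the 9 promoters on days 0, 1 and 2, beside 49.4%, 49.3% and 38.5% of all promoters. Of the promoters not printed, Kmt5a had 0, 13 and 8 bases covered, Setdb1 9, 39 and 60, Ehmt1 172, 208 and 110, and Ehmt2 62, 152 and 247. Kmt5a also has later annotated starts, at 124445499 and 124446704, whose promoters had 0, 225 and 152 and 0, 233 and 170 bases covered on days 0, 1 and 2. All 3 of its starts were thus free of mapped positions from 250 bases before to 50 bases after on day 0, and both later ones were not on days 1 and 2. No position centre within any of the 9 promoters at the first start was shared by all 3 days within 20 bp.

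The promoters at the first starts held 15 to 34 CpG in 300 bases, against a median of 14 and an upper quartile of 24 over all promoters. They ranged from near the median in Setdb1, at percentile 52.1, to percentile 90.2 in Ehmt1. Setdb1, Kmt5b, Kmt5a, Kmt5c and Ezh1 lay under the upper quartile. Short motifs were searched on both strands. CCAAT, the letters bound by the factor NF-Y, occurs in 39.6% of all promoters; it was found 1 time in Setdb1, 4 times in Kmt5a, 2 times in Kmt5c and 3 times in Ezh2, where 1 match begins at -11 counted from the start. The motif of NRF1 occurs in 6.74% of promoters and was found in Ezh1, Ezh2, Suv39h2 and Ehmt1, beginning at -36, -165, -126 and -148. AAGATGG, the letters of YY1, occurs in 6.40% and was found in Suv39h2, starting 37 bases after its start, and GATAA, the letters of GATA factors, occurs in 23.0% and was found 1 time each in Kmt5b and Setdb1. The GC box, GGGCGG, occurs in 46.9% of all promoters and was found in Kmt5a, Kmt5b, Suv39h2, Setdb1, Ehmt1 and Ehmt2. The TATA box, searched as TATAAA, occurs in 13.4% and was found in none of the 9; the E-box CACGTG, which reads the same on both strands, occurs in 8.01% and was found in Ehmt2. A match is a description of the sequence and not a bound site.

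Positions recurred between days more often over these genes than over the autosomes, which are less densely mapped. The autosomes held 1.54, 1.23 and 1.82 positions per kb on days 0, 1 and 2, and the 9 spans 2.21 to 5.19. No share over all gene spans is given. Of the day 1 positions in the 9 spans, 23.3% (21.3 to 25.4) had a day 0 centre within 20 bp, against 17.0% over the autosomes; after a shift of 1000 bp, which keeps the density but moves the places, the values were 17.1% and 13.1%. Of the day 2 positions, 21.7% (19.8 to 23.7) had a day 1 centre, against 12.5%, with 15.2% and 9.35% after the shift. Of the day 2 positions, 20.5% (18.6 to 22.4) had a day 0 centre, against 13.3%, with 15.4% and 10.3% after the shift. The differences from the shifted shares were thus 6.21, 6.45 and 5.07 percentage points over the genes and 3.92, 3.18 and 3.04 over the autosomes. The shifted shares were themselves higher over the genes, and the part of density in these differences was not tested.

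Centres found on all 3 days numbered 104, 103 and 105 in the lists of days 0, 1 and 2, or 6.29%, 6.30% and 5.91% of the positions in the 9 spans, beside 3.14%, 3.94% and 2.66% over the autosomes. Ehmt2 had 12.0%, 12.0% and 10.1%, the highest share on days 0 and 1, and Ezh1 the highest on day 2, 11.8%. Ezh2 had the lowest on each day, 2.21%, 3.61% and 2.02%. Near the starts, the first position of Kmt5a, 126, 106 and 111 bp downstream on days 0, 1 and 2, was among them. The day 2 centres of Ezh1 at 162 bp and of Setdb1 at 91 bp also lay within 20 bp of those of both other days, at 142 and 182 bp in Ezh1 and 111 and 81 bp in Setdb1. Setdb1 also had a position 539 bp before its start on each of the 3 days.

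Genes that work with these enzymes or on the same marks were read in 6 lists, over spans of the same kind. Of 10 PRC2 partners tested, 9, 1 and 2 were above 0 for day 1 over day 0, day 2 over day 1 and day 2 over day 0, with medians of 0.25, -0.44 and -0.26, and none passed 2 times. The extremes of day 2 over day 0 were Aebp2 with 0.41 and Rbbp4, a histone-binding subunit, with -0.45. Of 12 H3K9 methylation partners, 9, 3 and 3 were above 0, with medians of 0.27, -0.41 and -0.17 and none past 2 times; Morc2a at 0.14 and Uhrf1, a reader of hemimethylated DNA, at -0.34 were the extremes. The medians over all genes were 0.16, -0.26 and -0.14.

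Of 9 H4K20 readers and removers, 6, 3 and 5 were above 0 for day 1 over day 0, day 2 over day 1 and day 2 over day 0, with medians of 0.15, -0.24 and 0.12. Of these, 1 was higher by 2 times on day 2 over day 1, where 10.4% of all genes were; the day 2 over day 0 extremes were Phf8, a demethylase gene on chromosome X, at 0.61 and Trp53bp1 at -0.40. Of 11 demethylases of H3K9 and H3K27, 7, 4 and 3 were above 0, with medians of 0.13, -0.18 and -0.19. Of these, 1 was lower by 2 times on day 1 over day 0, where 7.02% of all genes were, and 2 were higher on day 2 over day 1, where 10.4% were. Kdm6a, an H3K27 demethylase gene on chromosome X, had 34, 27 and 85 positions on days 0, 1 and 2. It was higher by 1.13 on the log2 scale on day 2 over day 0, and Kdm4b was lowest at -0.58. Kdm6a was the 1 gene of the list past 2 times there, where 6.93% of all genes were higher. Of 3735952 positions on day 0, 3689577 lay on autosomes, and of 4474045 on day 2, 4382151 did. Positions outside the autosomes thus rose by a larger factor than those on them. Changes of genes on chromosome X, such as Kdm6a and Phf8, were not set against that chromosome as a whole. Of 15 methyltransferases of open chromatin, 10, 3 and 2 were above 0, with medians of 0.14, -0.39 and -0.35, and none passed 2 times, with Prdm9 at 0.34 and Smyd2 at -0.53 as extremes.

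The list of other writers of closed-chromatin marks held 5 genes, of which 2 were lower by 2 times on day 1 over day 0, 1 was higher on day 2 over day 1 and 1 was lower on day 2 over day 0, where 7.02%, 10.4% and 1.92% of all genes were. Above 0 were 2, 2 and 3, with medians of -0.69, -0.19 and 0.09. Prdm16 held 1120, 498 and 588 positions with an occupancy of 2.23, 1.08 and 0.879, a log2 change of -1.34 for day 2 over day 0. Suv39h1, the close relative of Suv39h2 on chromosome X, held 34, 38 and 49 positions with an occupancy of 0.791, 1.28 and 1.05. Its change for day 2 over day 0 was 0.42, and was likewise not set against chromosome X as a whole. On each day Suv39h1 lay below Suv39h2, with 1.45, 2.04 and 1.84, and below the lowest of the 9 genes on that day, which was Suv39h2 on day 0 and Ezh2 on days 1 and 2; the number of X chromosomes in the pooled cells is not given in the labels used here.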

How the data were processed

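For each library the authors deposited a list of positions with a summit signal and a fuzziness score for each position and p-values for both. The p-values deposited by the authors were not used. Per the submitters' processing notes, Bowtie2, bedtools and the build mm10 were used; their versions, the position caller and its settings, and read totals are unstated in the labels. Positions were called per library, so sums depend on how much was called. Repeated or duplicated sequence may be counted at more than 1 place.

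The size and depth of each list are given with the results. From the lists, scipy 1.17.1, pandas 2.3.3 and numpy 2.4.6 in Python 3.11.15 gave relative occupancy, the log2 ratio between days, position numbers, coverage by positions of 140 bp, and centres shared within 20 bp, also after shifts of 1000 bp both ways. Figures were drawn with matplotlib 3.10.9. Ratios of position numbers were scaled by those of the autosomes as a whole; their intervals are exact conditional binomial, those of shares Clopper-Pearson and those of densities exact Poisson, at 95%, for counting error only. Genes came from a RefSeq table of GRCm38.p6, without exons, leaving out entries below 3 Mb. Percentiles of changes are over all genes tested, and those of occupancy over all 21519 genes. The steps of the summit values were searched in 1 of every 400 positions. The calculation of changes was tested on simulated positions.

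The members, lists and windows were chosen with earlier results of these data known. All 9 members are named; of each list, its counts, median and the extremes of day 2 over day 0 over the span. Promoters were to be printed at the starts with the most and the fewest positions and at any centre shared by all 3 days, which none held; the other promoters printed were added. Position lists give no RNA level. The labels leave unstated whether the 3 days come from 1 culture. The alternatives tried were each position counted 1 time, summit values of 10 or more, low fuzziness, other windows, other scalings and other tolerances.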

Additional observations from a re-analysis of the deposited data

How the results depend on the processing

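No paired analysis was possible because each day has 1 library, and for the same reason no library could be left out. The cause of the movements below was not tested. A turn of direction was looked for only where the reported value had passed 2 times. No span had, so none could be found there, and at the gene ends none turned. Smaller values did change sign. For day 1 over day 0, Ehmt1 kept its sign in 3 of 7 alternatives and Ezh1 in 5 of 7. Scaled to 500 kb on each side, 5 of the 9 spans were above 0 for that step. The ends of Kmt5c for day 2 over day 0 went from -0.81 to 0.39 with windows of 1000 bp. Over the spans, the median log2 change for day 1 over day 0 (0.49) was 0.37 with each position counted 1 time, 0.28 with fuzziness below the library median, 0.33 with 10 kb on each side and 0.064 when scaled to 500 kb on each side. For day 2 over day 1 (-0.54) it was -0.33 with summit values of 10 or more, -0.35 when scaled to the median of all gene spans and 0.0014 when scaled to 500 kb. For day 2 over day 0 (-0.16) it was 0.075 with summit values of 10 or more, -0.028 when scaled to all gene spans, -0.041 without flanks and 0.066 when scaled to 500 kb, so its sign depends on the setting. The 0 spans past 2 times became 2 for day 1 over day 0 and 1 for day 2 over day 1 with summit values of 10 or more, and 1 for day 1 over day 0 without flanks. The share of all genes past 2 times was not computed under these settings, nor under those for the gene ends below.

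At the gene ends, the 2, 4 and 1 genes past 2 times for day 1 over day 0, day 2 over day 1 and day 2 over day 0 became 1, 1 and 0 when scaled to the median of all gene ends and 0 in each with windows of 1000 bp. With each position counted 1 time, 1 gene passed for day 1 over day 0 and 2 for day 2 over day 1. Summit values of 10 or more, low fuzziness, and windows from 200 bp outside to 50 bp inside gave no value. Each left fewer than 5 genes with at least 3 positions on each of the 3 days. Without a minimum number the values were those reported.

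Shared positions moved with the tolerance. Of day 0 positions, 14.2% and 13.2% were found on days 1 and 2 within 10 bp, 40.1% and 38.9% within 40 bp, and 9.16% on either day with summit values of 10 or more. Of day 1 positions, 14.3% and 13.9% were found on days 0 and 2 within 10 bp, 40.6% and 40.7% within 40 bp, and 9.46% and 8.92% with summit values of 10 or more. Of day 2 positions, 12.3% and 12.8% were found on days 0 and 1 within 10 bp, 36.1% and 37.6% within 40 bp, and 12.0% and 11.3% with summit values of 10 or more. Without flanks the pooled fuzziness was 55.3 on day 1 and 52.6 on day 2. Among values of single genes, 36 over the spans moved beyond their counting interval and 153 did not; at the ends, where the intervals are wide, none of 108 did.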
